A study of Mus musculus with 5 samples.

Results

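Basement membranes are thin sheets of extracellular matrix that underlie cells, and the muscle stem cell lies between the muscle fibre and the basement membrane that wraps it. 10 transcripts that encode its main building blocks were followed here, taken from the table by gene symbol: the type IV collagen chains Col4a1 and Col4a2, the collagen Col15a1, the laminin chains Lama2, Lama4, Lamb1 and Lamc1, the nidogens Nid1 and Nid2, and the proteoglycan Hspg2. All 10 had a row among the 11194 genes of the table, and none was lost to a filter on low counts. The libraries came from RNA precipitated with an antibody against Staufen1, a protein that binds double-stranded RNA, out of lysates of mouse skeletal muscle stem cells. 2 libraries were labelled Stau-/- and 3 were labelled Stau+/+. The same antibody was used in both groups, and by their label the Stau-/- precipitates would be the background of the assay. The study describes the cells as quiescent. The kind of Staufen allele, the age and sex of the mice and the sorting of the cells are not given in the labels used here, and neither is the number of mice behind each library, so p-values measure only the spread between these libraries, which may be technical. No library of total cell RNA was used here, so fewer cells of a type, less RNA per cell and a weaker pull-down cannot be told apart.

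Type IV collagen and laminin each form a network. A type IV collagen molecule in most tissues is a triple helix of a pair of alpha1 chains (Col4a1) and a single alpha2 chain (Col4a2), and a laminin is a cross-shaped trimer of 1 alpha, 1 beta and 1 gamma chain. Nidogens and perlecan, the heparan sulfate proteoglycan that Hspg2 encodes, link the networks. In skeletal muscle the alpha2 laminins made with Lama2 bind dystroglycan and the integrin of alpha7 and beta1 chains on the fibre surface, and loss of Lama2 causes a congenital muscular dystrophy.

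Col4a1 and Col4a2 lie head to head on chromosome 8 (mm10), are read in opposite directions and overlap at their starts. Whether the same stretch serves both genes was not tested here. The table places Col4a1 at 11198423 to 11312826 on the minus strand and Col4a2 at 11312805 to 11449287 on the plus strand, with 22 exon bases in common. A count made without strand cannot assign a read that falls in those bases. The RefSeq promoter windows of the pair (build GRCm38.p6, 250 bases before to 50 after the start) overlap by 78 bases, chr8:11312777-11312854, written in capitals below. That of Hspg2, chr4:137468553-137468852 on the plus strand, is shown beside them as an abundant member that was not called, with its GC boxes in capitals.
Col4a1, chr8:11312777-11313076, minus strand: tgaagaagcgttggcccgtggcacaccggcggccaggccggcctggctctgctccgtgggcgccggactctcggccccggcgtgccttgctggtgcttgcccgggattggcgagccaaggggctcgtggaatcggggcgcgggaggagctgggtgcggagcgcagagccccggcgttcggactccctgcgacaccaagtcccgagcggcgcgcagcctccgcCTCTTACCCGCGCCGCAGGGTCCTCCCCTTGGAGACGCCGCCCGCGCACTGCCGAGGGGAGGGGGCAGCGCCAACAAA
Col4a2, chr8:11312555-11312854, plus strand: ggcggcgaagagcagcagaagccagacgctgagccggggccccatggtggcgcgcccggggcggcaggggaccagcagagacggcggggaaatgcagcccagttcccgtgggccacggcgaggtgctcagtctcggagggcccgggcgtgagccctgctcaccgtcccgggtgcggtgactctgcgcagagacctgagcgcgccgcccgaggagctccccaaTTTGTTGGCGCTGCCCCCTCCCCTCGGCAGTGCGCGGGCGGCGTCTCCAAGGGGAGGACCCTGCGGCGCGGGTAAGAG
Hspg2: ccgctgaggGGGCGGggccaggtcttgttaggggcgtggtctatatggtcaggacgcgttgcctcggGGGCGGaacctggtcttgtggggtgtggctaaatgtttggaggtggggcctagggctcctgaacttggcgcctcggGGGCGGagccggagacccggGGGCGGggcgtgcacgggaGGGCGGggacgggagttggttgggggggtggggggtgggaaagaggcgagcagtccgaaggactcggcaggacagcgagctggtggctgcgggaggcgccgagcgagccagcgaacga
RefSeq windows were matched for 7 of the 10 members, all but Lama4, Lamc1 and Nid2. The GC box, GGGCGG on either strand, was found in 6 of the 7, with 5 matches in Hspg2, 3 in Col4a2, 2 in Lamb1 and 1 each in Col4a1, Lama2 and Nid1. The match in Col4a1 lies in the shared bases and is the same site as 1 of the 3 in Col4a2. The GC box occurs in 35.7% of the 32851 mouse windows. CCAAT, on either strand, was found in 4 of the 7 (Col4a1, Col4a2, Lamb1 and Nid1) and occurs in 37.4% of all windows. TATAAA, on either strand, was found in 0 of the 7 and occurs in 13.6% of all windows. The windows of Col4a1 and Col4a2 held 37 and 33 CpG dinucleotides, those of Hspg2 and Lama2 held 27 and 1, and the median of all windows was 7.

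Library totals were 9370244 and 3091302 counts in the Stau-/- libraries 1 and 2, against 105473455, 33846391 and 70042508 counts in the Stau+/+ libraries 1 to 3. Both Stau-/- libraries were thus shallower than all Stau+/+ libraries, so depth and label cannot be told apart. The values below are scaled to a common library size, so they compare shares of a precipitate and not amounts pulled down. A log2 fold change near 0 does not show that a transcript was unbound. The smallest count of a member was 50 (Nid2 in Stau-/- 2), so every member was detected in every library. Stau1 RNA, the targeted gene, had 109.0 and 110.7 CPM (the count scaled to a common library size) in the libraries labelled Stau-/-, against 104.3, 126.8 and 118.2 CPM in those labelled Stau+/+. Its log2 fold change, Stau-/- over Stau+/+ as for all below, was -0.08 (SE 0.19, edgeR adjusted p = 0.847), so its RNA does not check the labels, and the groups are named by their labels throughout. Counts over whole genes cannot show the loss of the protein or of part of the RNA. The edgeR quasi-likelihood test across all genes, at 0.05 after Benjamini-Hochberg adjustment, called 118 genes lower and 112 higher in the libraries labelled Stau-/-. With total counts in place of TMM scaling the split was 93 and 143.

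3 of the 10 members were lower in the libraries labelled Stau-/-, against 1.05% of all genes tested: both type IV collagen chains and the laminin gamma1 chain. No member was called higher, against 1% of all genes. By unadjusted p under 0.05, 3 were lower and 1 was higher, against 10.4% and 9.99% of all genes. DESeq2 called 3 lower and 0 higher, against 3.87% and 4.08% of all genes, and limma-voom called 1 lower and 0 higher, against 0.0715% and 0.125%. The median log2 fold change of the 10 was -0.34, beside a median of -0.0032 over all genes tested. 8 of the 10 were below 0, as were 5627 of the 11194 genes tested. The members spanned -1.17 for Col4a1 to 0.61 for Lama4. The genes were chosen with earlier results of these data known, and the calls of Col4a1, Col4a2 and Lamc1 were among those results.

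**Figure D1:**
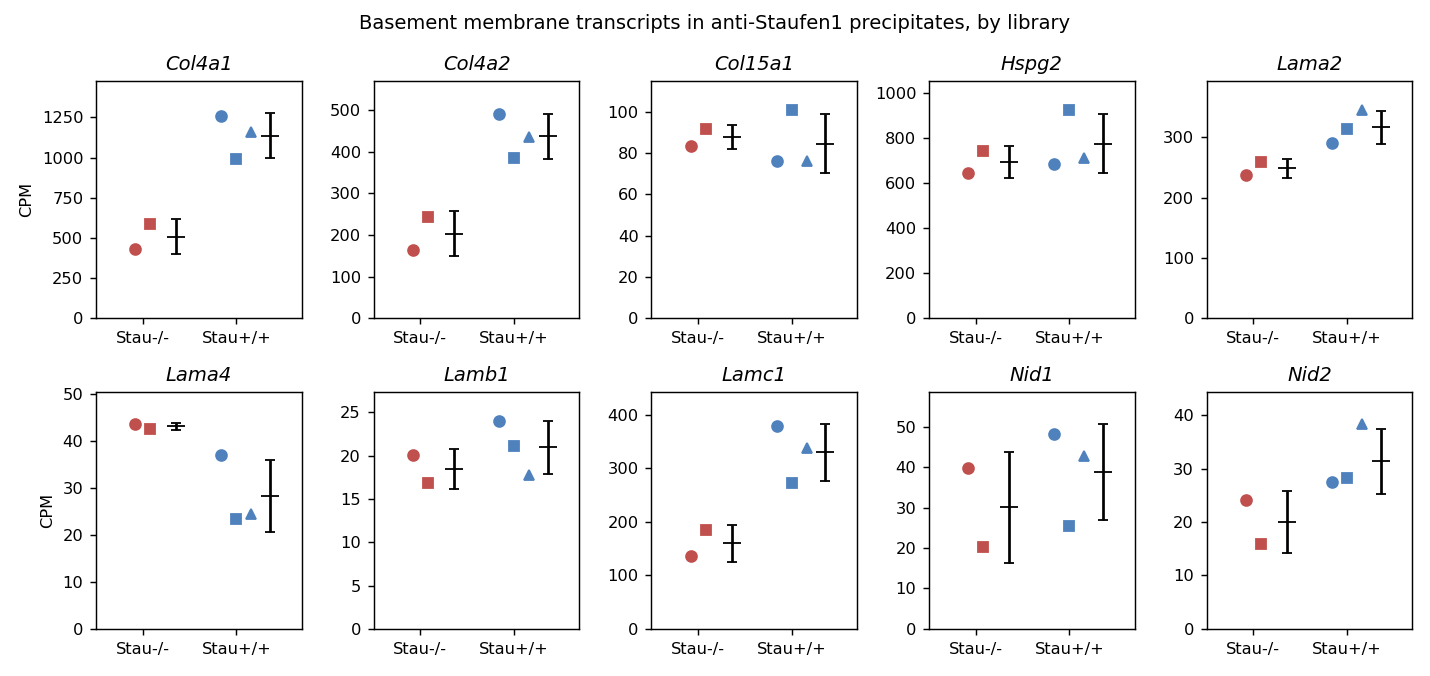
CPM of each of the 10 members in each library, labelled Stau-/- (red, libraries 1 and 2 as circle and square) and Stau+/+ (blue, libraries 1 to 3 as circle, square and triangle), with the mean and SD as black bars. Each vertical axis starts at 0 and has its own scale; the red points of Col4a1, Col4a2 and Lamc1 lie far below the blue points, and those of Lama4 lie above them.

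Col4a1, which encodes the alpha1 chain of type IV collagen, had 430.1 and 583.8 CPM in the libraries labelled Stau-/-, against 1260, 988.4 and 1161 CPM in those labelled Stau+/+. The highest Stau-/- value lay well below the lowest Stau+/+ value. Its log2 fold change was -1.17 (SE 0.20, 95% interval -1.60 to -0.74, edgeR adjusted p = 0.0142), a scaled level 0.446 times that of Stau+/+. Col4a2, the alpha2 chain, had 164.8 and 242.4 CPM against 491.9, 384.3 and 435.2 CPM, again without overlap. Its log2 fold change was -1.11 (SE 0.21, 95% interval -1.56 to -0.65, edgeR adjusted p = 0.0198). In both genes Stau-/- 1 was the lowest library and Stau+/+ 1 the highest.

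Per length (RPKM, CPM per kb of exon), the level of Col4a1 over that of Col4a2 was 2.53 and 2.34 in the libraries labelled Stau-/-, against 2.49, 2.5 and 2.59 in those labelled Stau+/+. These ratios overlapped between the groups, and both chains ordered the 5 libraries alike. Together Col4a1 and Col4a2 made up 32.7% and 37.6% of the summed CPM of the 10 members in the libraries labelled Stau-/-, against 52.8%, 44.5% and 50.0% in those labelled Stau+/+.

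Col15a1, a collagen that sits on the outer side of basement membranes and ties them to the surrounding matrix, did not follow the type IV chains. It had 83.6 and 91.9 CPM in the libraries labelled Stau-/-, against 76.2, 101.1 and 76.2 CPM in those labelled Stau+/+, and the groups overlapped. On the log2 scale the difference was 0.05 (SE 0.21, 95% interval -0.39 to 0.50, edgeR adjusted p = 0.917). The interval excludes a fall as large as the fitted one of Col4a1.

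Among the 4 laminin members, Lamc1 alone was called. It encodes the gamma1 chain, the gamma chain of most laminin trimers, and had 135.7 and 183.9 CPM in the libraries labelled Stau-/-, against 378.2, 273.3 and 338.0 CPM in those labelled Stau+/+. The groups did not overlap, and the log2 fold change was -1.05 (SE 0.21, 95% interval -1.51 to -0.59, edgeR adjusted p = 0.0251). The order of the libraries was the same as for both type IV collagen chains.

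Lama2, the alpha chain of the main muscle laminins, had 237.6 and 259.9 CPM in the libraries labelled Stau-/-, against 291.3, 313.8 and 345.7 CPM in those labelled Stau+/+. The groups did not overlap, but the log2 fold change of -0.35 (SE 0.18, 95% interval -0.74 to 0.04) was not called, with an edgeR adjusted p of 0.295. Both Stau-/- libraries lay below all Stau+/+ libraries for 20.4% of all genes and above them for 18.1%, so that a lack of overlap is common in this table. Among the members it was seen for 5 below (Col4a1, Col4a2, Lamc1, Lama2 and Nid2) and 1 above (Lama4).

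Lama4, an alpha chain best known from the basement membranes of blood vessels, was the member with the highest log2 fold change. It had 43.7 and 42.6 CPM in the libraries labelled Stau-/-, against 37.1, 23.3 and 24.5 CPM in those labelled Stau+/+, and the groups did not overlap. Its log2 fold change was 0.61 (SE 0.26, 95% interval 0.05 to 1.17), with an unadjusted p of 0.0358 and an edgeR adjusted p of 0.209, so it was not called. Lamb1, a beta chain, was low in all libraries, with 20.1 and 16.9 CPM in those labelled Stau-/-, against 23.9, 21.1 and 17.8 CPM in those labelled Stau+/+. In Stau-/- 2 the Lamb1 value rests on 53 counts, with a 95% exact Poisson interval of 12.6 to 22.1 CPM that covers counting error only. The fit gave -0.17 on the log2 scale (SE 0.29, 95% interval -0.80 to 0.46, edgeR adjusted p = 0.796).

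**Figure D2:**
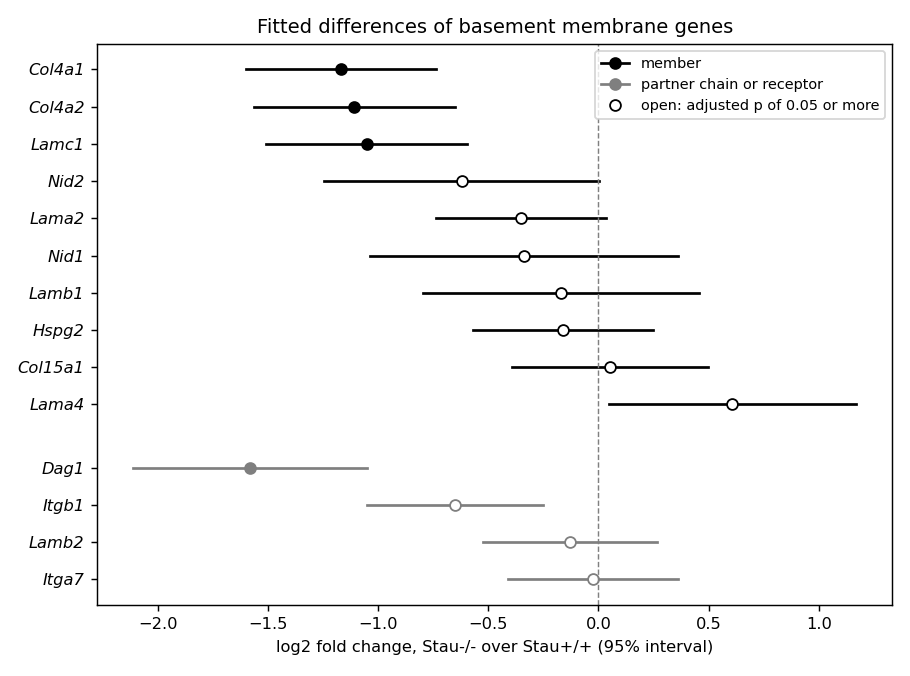
Log2 fold change, Stau-/- over Stau+/+, with its 95% interval for the 10 members (black) and for 4 genes whose products pair with them in muscle (grey), ordered within each set. Filled points passed an adjusted p of 0.05; Col4a1, Col4a2, Lamc1 and Dag1 were filled, and the intervals of Lama2, Lamb1, Nid1, Nid2, Hspg2, Col15a1, Lamb2 and Itga7 include 0.

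Set beside each other per length, the laminin chains in these precipitates were mostly Lama2, Lamb2 and Lamc1. Among the alpha chains, Lama2 averaged 25.6 ± 1.62 RPKM in the libraries labelled Stau-/- (SD, n = 2) and 32.6 ± 2.82 RPKM in those labelled Stau+/+ (SD, n = 3). Lama5 came next, with 18.4 ± 0.437 RPKM against 11.1 ± 2.27 RPKM, and Lama4 and Lama3 were each under 4 RPKM in every library. The beta chain was mostly Lamb2, which is not one of the 10 members, with 47.6 ± 1.21 RPKM against 52.0 ± 6.38 RPKM. Lamb2 was 23.9 and 27.5 times Lamb1 per length in the libraries labelled Stau-/-, against 22.2, 21.1 and 32.0 times in those labelled Stau+/+. These levels assume even coverage along each gene, which oligo(dT) priming may not give.

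Of the chains that join Lamc1 in muscle laminins, neither Lama2 nor Lamb2 was called. Lamb2 over Lamc1 was 2.95 and 2.10 per length in the libraries labelled Stau-/-, against 1.17, 1.36 and 1.40 in those labelled Stau+/+. Lama2 over Lamc1 was 1.49 and 1.20, against 0.656, 0.978 and 0.871. Neither ratio overlapped between the groups, and no test was run on them. Both divide by Lamc1, whose lower call was known when the genes were chosen, so they restate that call. Lama4 over Lama2 was 0.148 and 0.132, against 0.102, 0.0597 and 0.0570, so it was higher in both Stau-/- libraries too, at a small share of Lama2 in each. Lamb2 itself had a log2 fold change of -0.13 (SE 0.18, 95% interval -0.52 to 0.27, edgeR adjusted p = 0.748).

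**Figure D3:**
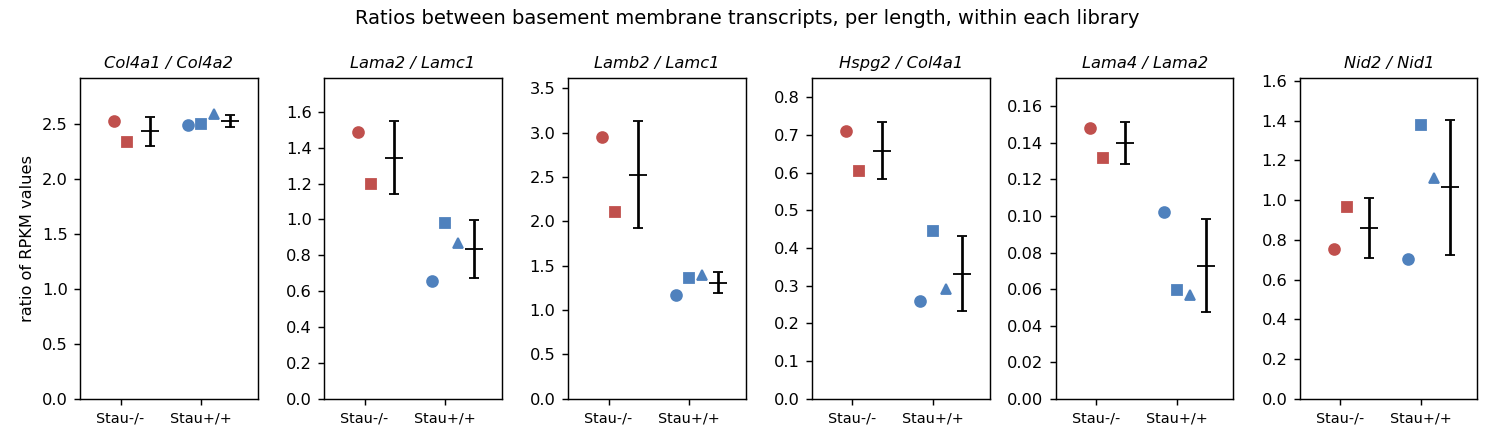
Ratios between basement membrane transcripts, from RPKM values within each library, labelled Stau-/- (red) and Stau+/+ (blue), with mean and SD in black. Col4a1 over Col4a2 lay between 2.34 and 2.59 in all 5 libraries, whereas the red and blue points of Lama2 over Lamc1, Lamb2 over Lamc1, Hspg2 over Col4a1 and Lama4 over Lama2 did not overlap. Those over Lamc1 or Col4a1 divide by a member called lower, so they restate that call.

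The nidogens bind laminin gamma1 and type IV collagen and so join the networks. Nid1 had 39.8 and 20.4 CPM in the libraries labelled Stau-/-, against 48.2, 25.4 and 42.8 CPM in those labelled Stau+/+, and the groups overlapped. The log2 fold change was -0.34 (SE 0.33, 95% interval -1.04 to 0.36, edgeR adjusted p = 0.606). Relative to its mean it had the widest SD of the members in each group, and its value rested on which Stau-/- library was kept: -0.93 without Stau-/- 1 and 0.03 without Stau-/- 2. Nid2 had 24.2 and 15.9 CPM in the libraries labelled Stau-/-, against 27.5, 28.3 and 38.4 CPM in those labelled Stau+/+. The groups did not overlap, and the log2 fold change was -0.62 (SE 0.29, 95% interval -1.24 to 0.0017, edgeR adjusted p = 0.246). In Stau-/- 2 these values rested on 64 counts for Nid1 (95% exact Poisson interval 15.7 to 26.0 CPM) and 50 for Nid2 (11.8 to 21.0 CPM). Nid2 shares 386 of its 4884 exon bases with Rtraf, so some of its reads may have been left out or assigned to either gene.

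Hspg2, the core protein of perlecan, was abundant in both groups and was not called. It had 642.2 and 741.2 CPM in the libraries labelled Stau-/-, against 684.7, 923.4 and 711.2 CPM in those labelled Stau+/+, and the groups overlapped. The log2 fold change was -0.16 (SE 0.19, 95% interval -0.57 to 0.25, edgeR adjusted p = 0.682). Hspg2 over Col4a1, per length, was 0.712 and 0.605 in the libraries labelled Stau-/-, against 0.259, 0.445 and 0.292 in those labelled Stau+/+. Its denominator was a member called lower, so the ratio restates that call.

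Ordered per length in the libraries labelled Stau+/+, the members ran from Col4a1 (166.7 ± 20.2 RPKM, SD, n = 3) through Col4a2 (66.0 ± 8.13), Hspg2 (54.0 ± 9.15), Lamc1 (39.9 ± 6.40), Lama2 (32.6 ± 2.82), Col15a1 (13.3 ± 2.26), Nid2 (6.43 ± 1.25) and Nid1 (6.42 ± 1.97) to Lama4 (2.34 ± 0.632) and Lamb1 (2.11 ± 0.312). By mean ± SD, several neighbours in this order overlapped: Col4a2 with Hspg2, Hspg2 with Lamc1, Lamc1 with Lama2, Nid2 with Nid1 and Lama4 with Lamb1. In the libraries labelled Stau-/- the order had Hspg2 (48.4 ± 4.90 RPKM, SD, n = 2) second behind Col4a1 (74.4 ± 15.9) and above Col4a2 (30.8 ± 8.29), and Lama2 (25.6 ± 1.62) above Lamc1 (19.3 ± 4.12). Col4a2 overlapped Lama2 there, and Nid1, Nid2 and Lama4 formed another run of overlapping neighbours.

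The calls depended on which libraries were kept, and so did those over all genes. With all 5 libraries 118 genes were called lower, against 21, 176 and 11 without Stau+/+ 1, 2 and 3. A fit that leaves out a Stau-/- library has 1 library in that group, which is then assumed to vary like the Stau+/+ libraries. Without Stau-/- 1 and without Stau+/+ 3, 0 of the 3 were called (adjusted p of Col4a1 0.0712 and 0.0555, of Col4a2 0.0993 and 0.0672, of Lamc1 0.110 and 0.0913). Without Stau+/+ 1, Col4a1 was called and the other two were not, while all 3 were called without Stau-/- 2 and without Stau+/+ 2. The log2 fold changes themselves ran from -1.40 to -0.96 for Col4a1, from -1.41 to -0.85 for Col4a2 and from -1.28 to -0.84 for Lamc1 over these 5 fits. With libraries thinned to the total of the shallowest one, all 3 were called, at -1.12, -1.07 and -1.06.

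**Figure D4:**
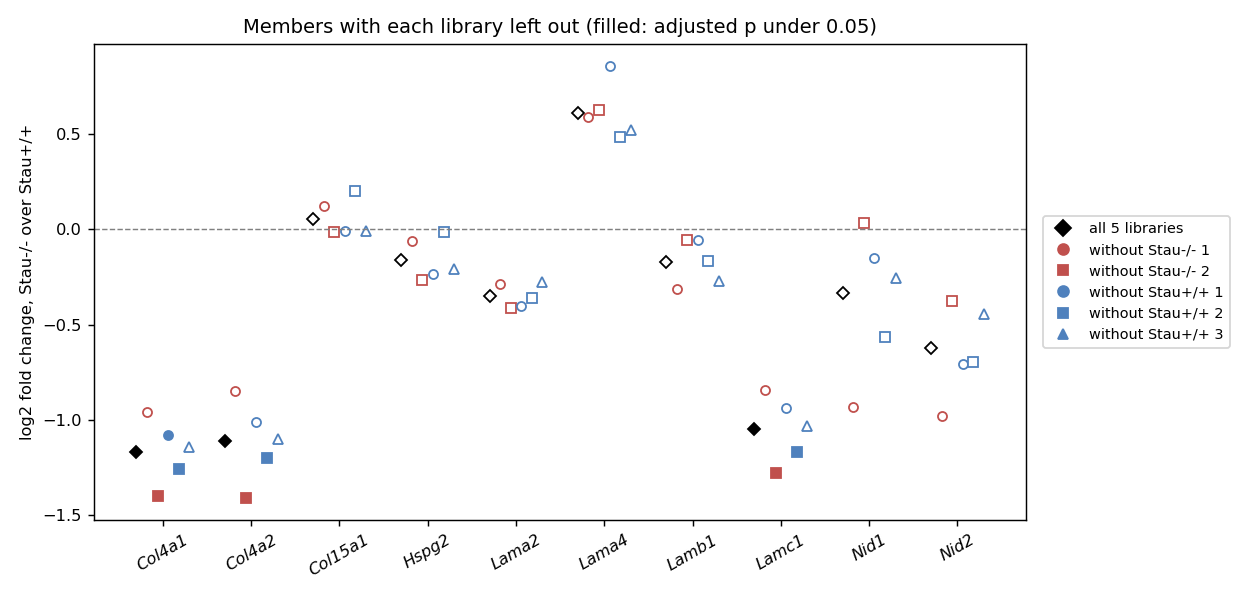
Log2 fold change, Stau-/- over Stau+/+, of each member with all 5 libraries (black diamond) and with each library left out in turn (coloured marks). Filled marks passed an adjusted p of 0.05; the marks of Col4a1, Col4a2 and Lamc1 stay between -1.41 and -0.84, and those of Nid1 reach from -0.93 to 0.03.

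7 of the 10 members lie in the longest of 5 equal length classes of the genes in the table, at 6493 bases of exon or more, and the other 3 in the next class. In the longest class the median log2 fold change over all 2238 genes was 0.0087, and 0.983% of them were called lower. In the next class the median was -0.0095.

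Other basement membrane components were measured for 20 of the 30 genes listed; the rest were not analysed here. 2 were lower in the libraries labelled Stau-/- and 0 were higher, against 1.05% and 1% of all genes. The other 18 were not called, and the median log2 fold change of all 20 measured was -0.38. Of the 20, 14 were below 0. Both Stau-/- libraries lay below all Stau+/+ libraries for 9 and above them for 2 (all genes 20.4% and 18.1%). Lamc3, a gamma chain of narrower expression, had 8.38 and 16.2 CPM in the libraries labelled Stau-/-, against 44.6, 31.6 and 53.3 CPM in those labelled Stau+/+ (log2 fold change -1.88, SE 0.34, edgeR adjusted p = 0.0162). The other was Sparc, a matrix protein that binds type IV collagen, at -1.14 (SE 0.19, edgeR adjusted p = 0.0141). Lama5, chosen after its values were seen because it is the other alpha chain prominent in vessel walls, had 205.5 and 212.5 CPM against 97.1, 140.0 and 143.4 CPM. The fitted difference was 0.72 on the log2 scale (SE 0.20, edgeR adjusted p = 0.0745), so it was not called. Of the 14 alternatives 2 called it, DESeq2 (adjusted p = 0.0164) and the fit with a replicate block (edgeR adjusted p = 0.00958). The others did not, among them limma-voom (adjusted p = 0.216). Lama4 was called in 0 of the 14 alternatives.

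Receptors for the basement membrane were measured for 16 of 17 genes, with a median of -0.18. Of these, 2 were lower and 0 higher, against 1.05% and 1% of all genes, and 14 were neither. Dag1, the precursor of both dystroglycan subunits, had 58.9 and 35.0 CPM in the libraries labelled Stau-/-, against 166.9, 131.9 and 128.9 CPM in those labelled Stau+/+ (log2 fold change -1.58, SE 0.25, edgeR adjusted p = 0.0117), and was called with each library left out but not by limma-voom (adjusted p = 0.0933). The heparan sulfate proteoglycan Sdc4 was at -0.94 (edgeR adjusted p = 0.0251). For the laminin-binding integrin of muscle, Itga7 was at -0.02 on the log2 scale (SE 0.18, edgeR adjusted p = 0.962; above 0 with total counts) and Itgb1 at -0.65 (SE 0.19, edgeR adjusted p = 0.0756). Of 15 measured genes for the glycosylation of dystroglycan, on which laminin binding depends, edgeR called 0; 2 were lower at an unadjusted p under 0.05 (all genes 10.4%), 1 by DESeq2 (all genes 3.87%) and 0 by limma-voom.

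Among 19 measured genes of collagen folding and crosslinking, the median was -0.39 and 17 were not called. 0 were higher (all genes 1%) and 2 were lower (all genes 1.05%). They were Serpinh1, the collagen chaperone of the endoplasmic reticulum, with 472.4 and 534.4 CPM against 1185, 909.4 and 1218 CPM (log2 fold change -1.13, edgeR adjusted p = 0.0142), and Colgalt1, which glycosylates collagen (-1.21, edgeR adjusted p = 0.0218). Of 21 proteases and inhibitors that act on the matrix, edgeR called 0; 6 were lower and 1 higher at an unadjusted p under 0.05 (all genes 10.4% and 9.99%), 4 were lower by DESeq2 (all genes 3.87%) and 0 by limma-voom, and the median was -0.07. These calls too depended on the libraries kept. Without Stau+/+ 3, of the 6 genes called in these lists Dag1 was the only one called. Over all genes, 11 were called lower in that fit.

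Markers of other cell types moved between the groups as well. The 12 endothelial markers summed to 2744 and 2281 CPM in the libraries labelled Stau-/-, against 1502, 1129 and 1200 CPM in those labelled Stau+/+. 5 of the 12 were higher and 0 lower, against 1% and 1.05% of all genes, and none was at 0 counts. The defining marker Pecam1 had 128.7 and 105.0 CPM against 104.6, 77.1 and 71.6 CPM (edgeR adjusted p = 0.234). The number called higher was 4 without Stau+/+ 1 or Stau+/+ 2, and 1 without Stau+/+ 3. Lama4 and Lama5, the latter named after its values were seen, were higher in the same 2 libraries. The part of endothelial RNA in the values of Lama4 and Lama5 was not tested.

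The 12 muscle stem cell markers summed to 3468 and 3606 CPM in the libraries labelled Stau-/-, against 6386, 5550 and 5935 CPM in those labelled Stau+/+. 4 of the 12 were lower and 0 higher, against 1.05% and 1% of all genes, and none was at 0 counts. Itga7 and Sdc4 stand in both this list and the receptors. The defining marker Pax7 had 251.7 and 180.7 CPM against 211.3, 263.2 and 241.5 CPM (log2 fold change -0.14, edgeR adjusted p = 0.748). The number called lower was 0 without Stau+/+ 1 or Stau+/+ 3, and 5 without Stau+/+ 2. The 12 markers of fibro-adipogenic progenitors, which make collagen in muscle, summed to 3651 and 3677 CPM against 6196, 4224 and 5572 CPM. Of these sums Gsn alone gave 2089 and 2032 CPM, against 3170, 2140 and 2963 CPM. 2 of the 12 markers were lower and 1 was higher (0 and 0 without Stau+/+ 3), against 1.05% and 1% of all genes. The 2 lower were the collagens Col1a1 and Col3a1, and the higher 1 was Ly6a. None of the 12 was at 0 counts, and the defining Pdgfra had 9.01 and 4.45 CPM against 10.5, 6.14 and 14.2 CPM. Pericyte and smooth muscle markers summed to 2659 and 2803 CPM against 3039, 2857 and 2937 CPM, with 0 of 12 called by edgeR. At an unadjusted p under 0.05, 2 of them were lower and 2 higher (all genes 10.4% and 9.99%); DESeq2 called 1 each way (all genes 3.87% and 4.08%) and limma-voom 0. The defining Rgs5 had 292.8 and 353.7 CPM against 231.0, 192.7 and 212.7 CPM (edgeR adjusted p = 0.088). Muscle fibre markers stood apart in 1 library, with 401.8 and 2525 CPM in Stau-/- 1 and 2, against 568.0, 499.4 and 572.0 CPM. Of the 9 measured, edgeR called 0, DESeq2 0 and limma-voom 0. At an unadjusted p under 0.05, 7 were higher (all genes 9.99%). The defining Acta1 had 199.0 and 1340 CPM against 299.4, 256.8 and 317.4 CPM. Red blood cell markers summed to 471.3 and 805.2 CPM against 295.1, 215.5 and 251.3 CPM. 3 of the 4 measured were called higher (1 without Stau+/+ 3), against 1% of all genes. All 3 are globin genes with near-identical copies among which reads may be split uncertainly. Hbb-b1 had 166.2 and 316.2 CPM against 91.9, 67.2 and 73.0 CPM (edgeR adjusted p = 0.0104). The part of any of these cell types in the values of the members was not tested.

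**Figure D5:**
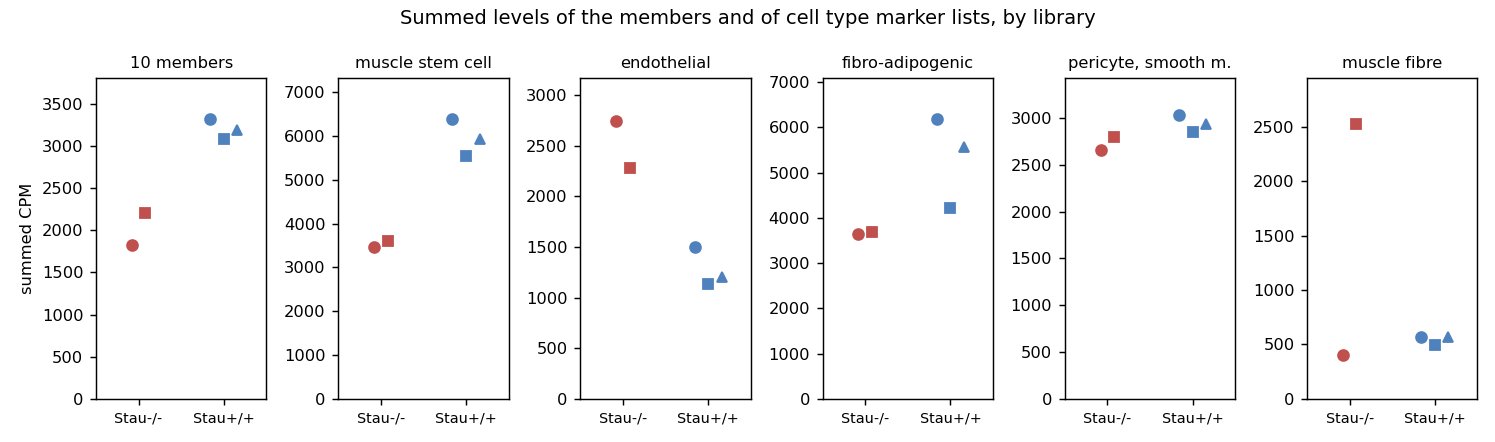
Summed CPM, by library, of the 10 members and of 5 marker lists, for the libraries labelled Stau-/- (red) and Stau+/+ (blue); each axis starts at 0. The sums of the members and of the muscle stem cell markers are lower in both Stau-/- libraries, those of the endothelial markers are higher, and the muscle fibre sum of 2525 CPM in Stau-/- 2 stands alone. The members' sum is not a fall of each member, as 7 of the 10 were not called. Col4a1 and Col4a2 made up 52.8%, 44.5% and 50.0% of it in the libraries labelled Stau+/+, and 32.7% and 37.6% in those labelled Stau-/-.

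Genes whose pattern over the 5 libraries was most like the median of the members were found by the root mean square difference of their centred log2 CPM, among 8529 other genes with a mean of at least 10 CPM. They were Rnft1 (0.0548), Unc93b1 (0.0563), Ppp1r15a (0.0571), Csk (0.0576) and Eif4e2 (0.0586). Ppp1r15a, a regulator of translation initiation factor phosphorylation, had 779.4 and 726.9 CPM in the libraries labelled Stau-/-, against 1049, 957.4 and 1046 CPM in those labelled Stau+/+. The members themselves lay between 0.13 (Lama2) and 0.581 (Lama4) from their median. The 5 genes were picked as the closest of 8529, so their smaller distances were fixed by that choice. Col4a1, Col4a2 and Lamc1 lay at 0.416, 0.415 and 0.374, so the 5 were not picked by likeness to the called members.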

How the data were processed

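Raw counts per gene were deposited by the authors as whole numbers, with exon length and coordinates on mm10. Trim Galore, STAR, featureCounts (Subread) and edgeR are named in the submitters' processing notes; their versions, the annotation release and any use of strand were not given in the sources used here. Per the labels' protocols, cDNA synthesis was primed with oligo(dT), libraries were amplified by PCR, and no molecular identifiers are named. The exact Poisson intervals cover counting error only, whereas those of the log2 fold changes come from the fit and include spread between libraries. The third-highest CPM of a gene was never below 3.02, so the table holds no gene detected in the Stau-/- libraries alone. The deepest library was 34.1 times the shallowest.

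Counts were analysed in R 4.3.3 with edgeR 4.0.16 (filterByExpr, which removed 0 genes; TMM; glmQLFit; two-sided glmQLFTest on genotype; Benjamini-Hochberg over 11194 genes). CPM and RPKM use TMM-scaled totals, and profiles used log2(CPM + 0.5). The SE comes from the coefficient and its F statistic, on 14.05 degrees of freedom. Code was tested on simulated data. Alternatives used DESeq2 1.42.0, limma-voom (limma 3.58.1), other scalings and filters, binomial thinning, a replicate block and each library left out. Replicates differed by more than sampling noise (chi-square per degree of freedom 17.7 to 258).

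The members and gene lists were chosen with earlier results of these data known. The text names all members; called genes of the related lists (up to 5 each) with Dag1, Itgb1, Itga7 and Lamb2; Stau1; the first gene of each marker list the report describes; and the 5 nearest patterns. Lama5, Lama3 in the order of alpha chains, and the progenitor markers Gsn, Col1a1, Col3a1 and Ly6a fall outside this rule. They were named after their values were seen. Lists are described by counts and medians, with no set test, and the shares of all genes called stand beside the members' counts. Of 7 Schwann cell and 8 macrophage markers measured, 1 and 0 were called higher and 0 and 0 lower by edgeR (at an unadjusted p under 0.05, 3 and 0 higher and 0 and 1 lower; by DESeq2, 2 and 0 higher and 0 and 1 lower; by limma-voom, 1 and 0 higher and 0 and 0 lower).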

Additional observations from a re-analysis of the deposited data

How the results depend on the processing

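Of the 10 members' log2 fold changes under 14 alternatives, 125 of the values kept their direction and their side of the threshold, 10 kept direction and lost the call, and 5 turned sign. Those that turned were all near 0 in one fit or the other: Col15a1 (-6.54e-05 with the replicate block, and -0.0157 to 0.198 with each library left out) and Nid1 (-0.932 to 0.0343 with each library left out). Itga7 turned to 0.0187 with total counts, to 0.0306 with the replicate block and lay between -0.109 and 0.0312 with each library left out. The number of members called lower was 3 under all alternatives but limma-voom, where it was 1 (Col4a1), and some fits with a library left out, where it ran from 0 to 3; the number called higher was 0 throughout. The members' median was -0.247 after thinning and -0.578 to -0.272 with each library left out, lowest without Stau-/- 1. Over all genes, 118 lower and 112 higher became 433 and 457 with DESeq2, 8 and 14 with limma-voom and 288 and 324 with the replicate block; 175 were higher after thinning. With each library left out the counts ran from 11 to 176 lower and from 23 to 172 higher, lowest without Stau+/+ 3 and highest without Stau+/+ 2. The cause was not tested. Replicate numbers do not pair the libraries on any stated basis. Deviations from group means correlated at 0.0508 and 0.0446 for same-numbered libraries. With 2 Stau-/- libraries, the deviations of one are the reverse of those of the other, so these values are not separate checks of pairing. With the block, Col4a1, Col4a2 and Lamc1 were again the 3 members called. Alternatives for genes outside the members were added after the data were seen. In Stau-/- 2, the shallowest library, a count of 0 allows up to 0.954 CPM, and Nid1, Nid2 and Lamb1 rested on 50 to 64 counts there.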
